A study of Mus musculus with 6 samples.

Results

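The 36 genes described here encode the unfolded protein response and the secretory machinery of the endoplasmic reticulum (ER). They were picked by name from the 19446 genes in the table, at a time when earlier results of these data were known. They comprise 16 ER chaperones and foldases, 7 stress sensors and transcription factors and 4 targets of the integrated stress response. The other roles are 4 genes of ER-associated degradation and 5 genes of COPII vesicle export. Poly(A) RNA was sequenced from cardiac fibroblasts (CFs) cultured from 5-week-old mice, as 3 wild-type (WT) libraries and 3 CharmeKO libraries. Charme is a long non-coding RNA of heart and skeletal muscle, and CharmeKO mice carry a polyadenylation signal inserted in its locus, on the C57BL/6J background. The CFs of both genotypes grew out of fragments of atrial tissue collected from littermates, on fibronectin and in serum-rich medium. The labels name no treatment, so both genotypes were measured in culture with no ER stressor named. The study compared them to learn how loss of Charme affects the maturation of CFs and the signals they send.

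Fibroblasts secrete collagen and other matrix proteins, which fold in the ER with the help of chaperones such as BiP (the product of Hspa5) and of protein disulphide isomerases. When unfolded proteins accumulate, the sensors IRE1α (Ern1), PERK (Eif2ak3) and ATF6 are released from BiP; IRE1α splices Xbp1 mRNA, PERK slows translation and favours translation of Atf4, and ATF6 is cut to release a transcription factor. Folded procollagen then leaves the ER in COPII carriers, while proteins that fail to fold are sent back to the cytosol for degradation.

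Each library held between 38330019 and 46797446 reads assigned to genes. Values are given as normalised reads, the count of a gene divided by the library's size factor. The table's entry without an Ensembl identifier, taken here to be the Charme gene that was added to the annotation, held 5, 15 and 11 reads in the WT libraries and 0, 6 and 3 in the CharmeKO libraries, so it was near the counting floor of 3 reads in both groups and a weak check of the labels. All 10 fibroblast markers were measured, and their summed level spanned 1503300 to 2910060 normalised reads in WT and 1839900 to 2183000 in CharmeKO libraries. The 13 smooth muscle and pericyte markers summed to between 58055 and 270584 in WT and between 33274 and 159092 in CharmeKO. The 11 macrophage and leukocyte markers measured summed to between 1950.0 and 8244 in WT and between 1029 and 17831 in CharmeKO, with 3 of them at 0 in some library. Endothelial markers (6 measured, 1 at 0 in some library) stayed at no more than 381 normalised reads in sum and cardiomyocyte markers (4 measured, 2 at 0 in some library) at no more than 794.

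No gene of the 36 differed between the genotypes by the test. All 36 passed the filter on low values (at least 10 reads in at least 2 libraries), and the test was limma on log2(normalised reads + 1) over 15948 genes, with Benjamini-Hochberg adjustment and a threshold of 0.05. Of the 36 genes, 0 were called, as were 0% of all genes tested. The adjusted p was 0.9999 for each of them. At an unadjusted p under 0.05, limma counted 0 of the 36 and 0.897% of all genes, and the unadjusted values of the 36 ran from 0.216 (Eif2ak3) to 0.973 (Asns). Tests on whole reads also called 0 of the 36. Of all genes, edgeR called 0% (0.991% at an unadjusted p under 0.05) and DESeq2 called 0.0502%. The study's methods describe independent primary cell isolations, and the labels do not say which isolation each library came from, so these p-values measure the spread between the libraries.

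The size of the differences was small, and the intervals around them show how large a difference the data could still hide. The log2 difference (CharmeKO minus WT) ran from -0.37 for Sec23a to 0.28 for P4hb, with standard errors of 0.141 to 0.425. Its median over the 36 genes was 0.064, against 0.0022 over all genes tested. That median turned to -0.027 without the second WT library and to -0.0023 without the third CharmeKO library. The difference was above 0 for 22 of the 36 genes, against 50.4% of all genes, and below 0 for 14, against 49.6%. For 33 of the 36 the 95% interval of the fold lay within 2-fold in either direction, against 47.5% of all genes and 69.6% of the 10484 genes expressed at least as highly as the lowest of the 36. The exceptions were Pdia4 and Chac1, whose intervals reached a log2 difference of 1.02 and 1.10, and Sec23a, whose interval reached -1.06. A tighter limit of 1.5-fold held for 11 of the 36 genes, against 25.1% of those 10484 genes. The 10484 genes were not matched to the 36 for level, with a median of 1478 normalised reads against 5630. In bulk RNA, a change in the number of cells of a type and a change in RNA per cell cannot be told apart.

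**Figure D1:**
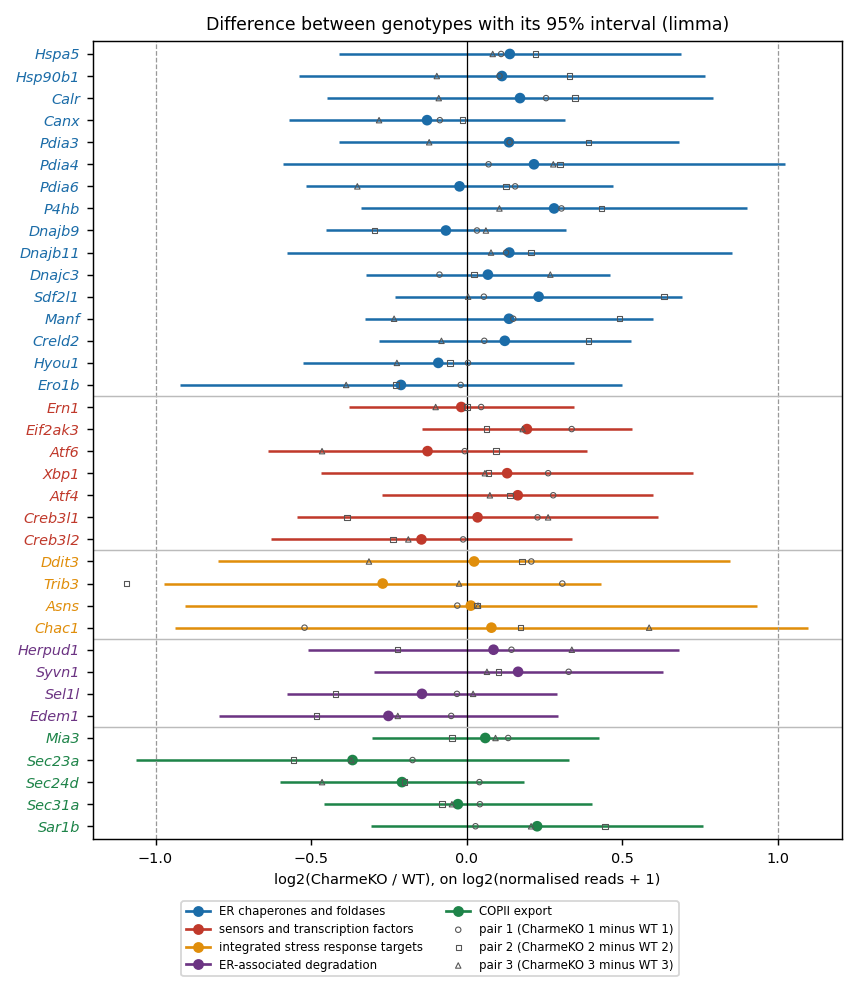
Log2 difference between CharmeKO and WT CFs for the 36 genes, coloured by role: filled circles are the limma estimate, bars its 95% interval, and small open symbols the differences between libraries of the same number. Every bar crosses 0, and the dashed lines at -1 and 1 mark a 2-fold difference, which only the bars of Pdia4, Chac1 and Sec23a pass.

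Of the 7 sensors and transcription factors, 4 were above and 3 below 0 in the comparison of the genotypes, with a median log2 difference of 0.035. Eif2ak3, which encodes PERK (chromosome 6, 70844515 to 70905245, GRCm38), had 1649.5, 1872 and 1757 normalised reads in the WT libraries and 2084, 1956 and 1990.0 in the CharmeKO libraries. Every CharmeKO library was above every WT library. Groups that did not overlap, in either direction, were seen for 2 of the 36 genes (Eif2ak3 and Canx) and for 4.11% of all genes. This made a log2 difference of 0.19 ± 0.141 (SE), a fold of 1.14 with a 95% interval of 0.904 to 1.45. Eif2ak3 was also the gene of the 36 with the largest share of its variance between genotypes, 72.8%.

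Atf4, the transcription factor whose translation PERK favours, had 6299, 7904 and 8555 normalised reads in WT and 7638, 8709 and 9008 in CharmeKO CFs. The ranges overlapped, although each CharmeKO library was above the WT library of its own number, at a log2 difference of 0.16 ± 0.181 (SE). Xbp1, the mRNA that IRE1α splices, had 3445, 5425 and 5511 in WT and 4130.3, 5693 and 5739 in CharmeKO. The first library of each genotype was the lowest, the ranges overlapped, and the log2 difference was 0.13 ± 0.250 (SE). Counts per gene do not separate spliced from unspliced Xbp1, nor do they show translation of Atf4 or cleavage of ATF6.

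Creb3l2, an ER-bound transcription factor that is cut in the Golgi and is known to drive Sec23a in cartilage, had 6530.2, 8003 and 9469 in WT and 6478, 6790.4 and 8314 in CharmeKO. Libraries of the 2 groups overlapped, and the log2 difference was -0.15 ± 0.202 (SE). Its relative Creb3l1, known for its part in collagen production by bone cells, ranged from 5761 to 6929 in WT and from 4580.4 to 8114 in CharmeKO. Ern1 and Atf6 ranged from 2052 to 2351 and from 4449 to 5109 in WT, and from 2054 to 2428 and from 3223 to 5087 in CharmeKO. The lowest Atf6 value came from the third CharmeKO library, and without that library the log2 difference of Atf6 went from -0.13 to 0.08.

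The 16 chaperones and foldases had a median log2 difference of 0.129, with 11 above 0 and 5 below. Between libraries of the same number, the median was 0.088 for the first pair, 0.261 for the second and -0.085 for the third, so the direction of this group was not shared by the pairs. Hspa5, whose product BiP is the chief ER chaperone and the usual readout of the response (chromosome 2, 34771970 to 34777547, GRCm38), had 31197, 36769.5 and 39604 normalised reads in WT and 33682, 42873 and 41966 in CharmeKO. The groups overlapped, with each CharmeKO library above the WT library of its number. On the log2 scale the difference was 0.14 ± 0.230 (SE), a fold of 1.10 with a 95% interval of 0.752 to 1.61.

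P4hb encodes protein disulphide isomerase, which is also a subunit of the prolyl hydroxylase that collagen needs for a stable triple helix (chromosome 11, 120560298 to 120573253, GRCm38). It had 63893, 51871 and 56428 normalised reads in WT and 78909, 70021 and 60694 in CharmeKO CFs. The highest WT library was above the lowest CharmeKO library, so the groups overlapped by that pair of values. Its log2 difference of 0.28 ± 0.259 (SE) was the highest of the 36 and kept its direction without each library in turn, from 0.19 to 0.38. Direction was kept in this way for 18 of the 36 genes and for 36.7% of all genes.

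Sdf2l1, a component of a chaperone complex with BiP, had 1073, 825 and 1172 in WT and 1115, 1281 and 1176 in CharmeKO. The second WT library stood low, and the other values lay close together. With all libraries the log2 difference was 0.23 ± 0.193 (SE), and without that library it was 0.084. Creld2, an ER stress-inducible protein with EGF-like domains, had 1479, 1507 and 1711 in WT and 1538, 1977 and 1617 in CharmeKO, again with overlap, and a log2 difference of 0.12 ± 0.169 (SE).

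Canx, chosen after its values were seen as the other gene without overlap, encodes calnexin, a membrane lectin that holds new glycoproteins. It had 26658, 25859 and 30151 normalised reads in WT and 25109, 25606 and 24803 in CharmeKO. All CharmeKO libraries were below all WT libraries, with 25606 and 25859 as the nearest values. Canx had a log2 difference of -0.13 ± 0.185 (SE), the opposite direction to Calr, its soluble relative, at 0.17 ± 0.258.

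The remaining chaperones and foldases also lay on both sides of 0. Hsp90b1 (the ER HSP90), Pdia3, Manf, Dnajb11 and Pdia4 had log2 differences of 0.11 to 0.22, Dnajc3 had 0.07, and Pdia6, Dnajb9, Hyou1 and Ero1b, an oxidase that recharges the isomerases, had -0.02, -0.07, -0.09 and -0.21. Pdia4 spanned the widest range of the chaperones as a ratio of highest to lowest library (2.18-fold), from 6635 to 11901 in WT and from 6966 to 14433 in CharmeKO, lowest in the first library of each genotype and highest in the last. Another annotated entry overlaps 8 of the 36 on the same strand (Hsp90b1, Pdia4, Manf, Ero1b, Syvn1, Ddit3, Atf6 and Eif2ak3). For Ddit3 it is a second entry of the same name. Reads in a shared stretch may be missing from the counts of these genes.

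Some of the genes share elements in their promoters. ATF6 and XBP1 act through the ER stress response element (ERSE), searched here as CCAAT and CCACG with any 9 bases between them, on both strands of the RefSeq promoters (GRCm38.p6), each 300 bases long, from 250 before to 50 after the gene start. A promoter was matched for 32 of the 36 genes, and 9 of the 32 held the element (28.1%), against 39 of 32851 promoters (0.119%). The genes are Hspa5, Hsp90b1, Calr, Canx, Pdia6, Ero1b, Dnajc3, Creld2 and Syvn1; 8 of them are chaperones or foldases. The sequences below are those of the genes whose levels the results turn on, written 5′ to 3′ in the direction of the element, with the element in capitals:
Hspa5: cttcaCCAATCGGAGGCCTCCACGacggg
Hsp90b1, farther from the start: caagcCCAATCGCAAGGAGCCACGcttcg
Hsp90b1, nearer to the start: actcaCCAATCGTGCCTCACCACGcactc
Calr: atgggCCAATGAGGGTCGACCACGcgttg
Canx: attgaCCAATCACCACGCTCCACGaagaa
Creld2: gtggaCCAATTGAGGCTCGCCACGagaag
Syvn1: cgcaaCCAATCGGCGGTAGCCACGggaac

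The Hspa5 site lies at chr2:34772020-34772048 on the plus strand with the element 65 to 47 bases before the RefSeq gene start; the GENCODE gene begins farther upstream, so the site lies inside its span. Hsp90b1, on the minus strand, holds a site in its own direction at chr10:86705633-86705661 and a site in the other direction at chr10:86705528-86705556. The Calr and Creld2 sites, at chr8:84847070-84847098 (plus strand) and chr15:88819515-88819543 (minus strand), also point away from the gene, while those of Canx (chr11:50325795-50325823, minus strand) and Syvn1 (chr19:6046527-6046555, plus strand) share the direction of the gene. A match in letters is a description and not a bound site. In the comparison of the genotypes, the 9 genes with the element had a median log2 difference of 0.11, with 6 above 0 and 3 below, and the 23 with a promoter and no such match had 0.060, with 14 above and 9 below. The range among the 9 went from -0.21 for Ero1b to 0.17 for Calr, so genes with the element were found on both sides of 0.

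Shorter elements of the pathway were found in other genes. ERSE-II, searched as ATTGG and CCACG with any single base between them, was in Herpud1 and Dnajb11, against 0.0365% of all promoters. The core of the XBP1 element, TGACGTGG, was in Sec24d and Sec23a, against 0.676%. The element that ATF4 shares with C/EBP factors, searched as TGATGNAAN, was in Asns, Trib3, Chac1 and Herpud1, against 3.95%. Here too the genes were picked by name for the pathway, so these shares are description only. Sites of Herpud1, Sec23a, Sec24d, Asns and Chac1 are shown with the element in capitals:
Herpud1, ERSE-II: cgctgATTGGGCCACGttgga
Sec23a, XBP1 core: cccttTGACGTGGcagag
Sec24d, XBP1 core: gcgccTGACGTGGcacta
Asns, ATF4 element: ccacaTGATGAAACttccc
Chac1, ATF4 element: aggagTGATGCAACggcag

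These sites lie at chr8:94386372-94386392 (plus strand, Herpud1), chr12:59011999-59012016 (minus strand, Sec23a), chr3:123267465-123267482 (plus strand, Sec24d), chr6:7693219-7693237 (minus strand, Asns) and chr2:119351043-119351061 (minus strand, Chac1). The Sec23a match falls just after the RefSeq gene start and the other sites shown lie before it. The matches of Trib3 (ATF4 element) and Dnajb11 (ERSE-II), not shown, also fall after the start.

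The 4 targets of the integrated stress response varied more between libraries than the other 4 roles (median SD of the log2 level 0.475), and little of that spread lay between genotypes (median share of the variance 0.356%). Ddit3, which encodes the pro-apoptotic factor CHOP, had 2885, 1661 and 1939 normalised reads in WT and 3332, 1879.7 and 1559 in CharmeKO. The first library of each genotype was the highest and the groups overlapped throughout, so that the log2 difference was 0.02 ± 0.343 (SE). Trib3, a pseudokinase induced by ATF4 and CHOP, had 1026, 1748 and 1436 in WT and 1270.1, 819 and 1412 in CharmeKO. The second libraries stood at opposite ends, the highest of WT and the lowest of CharmeKO. For Trib3 the log2 difference was -0.27 ± 0.293 (SE), and it was -0.03 without the second CharmeKO library. Chac1, which degrades glutathione, had 941, 384 and 643 in WT and 656, 434 and 965 in CharmeKO. The groups overlapped, at a log2 difference of 0.08 ± 0.425 (SE), with the largest standard error of the 36.

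Asns, chosen after its values were seen, encodes asparagine synthetase, a classical ATF4 target. It had 4127, 2154 and 4422 normalised reads in WT and 4042, 2204 and 4535 in CharmeKO CFs. The second library of each genotype was the low one and same-numbered libraries were nearly equal. The number of the library took up 99.9% of its variance in log2 and the genotype 0.0205%, at a log2 difference of 0.01 ± 0.383 (SE). The proliferation gene Mki67 was low in the same libraries, at 3994, 1478 and 5916 in WT and 3832, 1213 and 5929.9 in CharmeKO. The 12 cell cycle genes summed to 22218, 8815 and 26308 in WT and to 21997, 8289 and 24614 in CharmeKO. Their part in the levels of Asns was not tested.

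In ER-associated degradation, 2 genes were above and 2 below 0, with a median log2 difference of -0.029. Edem1, a lectin that marks misfolded glycoproteins for disposal, had 5629, 5226 and 6908 normalised reads in WT and 5438, 3738 and 5925 in CharmeKO. Each CharmeKO library was below the WT library of its number and the ranges overlapped. A log2 difference of -0.25 ± 0.227 (SE) resulted, and it was -0.05 without the second CharmeKO library. Syvn1, the ubiquitin ligase of the pathway (HRD1), had 2939, 3592 and 4324 in WT and 3688, 3857 and 4524 in CharmeKO, the other direction, with overlap and a log2 difference of 0.17 ± 0.194 (SE). Sel1l, the adaptor that holds Syvn1 in place, had 10139, 9684 and 8977 in WT and 9921, 7234 and 9105 in CharmeKO. The second CharmeKO library stood low, and the log2 difference of -0.14 ± 0.181 (SE) was -0.013 without it. Herpud1, a stress-inducible partner of the ligase, ranged from 1891 to 2674 in WT and from 2089 to 3379.8 in CharmeKO, with a log2 difference of 0.09.

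The COPII genes carry procollagen out of the ER. Sec23a, a subunit of the inner coat (chromosome 12, 58958383 to 59012017, GRCm38), had 6862, 5266 and 8309.8 normalised reads in WT and 6082, 3582 and 6427 in CharmeKO. Each CharmeKO library was below the WT library of its number, and the WT and CharmeKO ranges overlapped because the second library of both genotypes stood low. Sec23a had the lowest log2 difference of the 36, -0.37 ± 0.290 (SE), a fold of 0.775 with a 95% interval of 0.479 to 1.26. With the library number as a block, Sec23a alone among the 36 had an unadjusted limma p under 0.05 (0.0241), against 5.37% of all genes. Its adjusted p was then 0.7997 by limma and 0.543 by DESeq2.

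Sec24d, the cargo-binding partner of Sec23a, had 8023, 8774 and 10203 in WT and 8254, 7638 and 7392 in CharmeKO. The ranges overlapped only through the first libraries, at a log2 difference of -0.21 ± 0.164 (SE). Sar1b, the GTPase that starts coat assembly, had 1877, 1140.3 and 1444 in WT and 1914, 1551 and 1666 in CharmeKO, above WT in each pair and with overlapping ranges, at a log2 difference of 0.23 ± 0.223 (SE). Mia3 (TANGO1), the receptor that loads procollagen into the carriers, ranged from 5082 to 5981 in WT and from 5573 to 6329 in CharmeKO, at a log2 difference of 0.06. Sec31a of the outer coat ranged from 14584 to 17986 and from 14879 to 17404, at -0.03. The coat subunits Sec23a, Sec24d and Sec31a were thus below 0 and Sar1b and Mia3 above it, and none passed the test.

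Counted over the pairs, 10 of the 36 genes were above WT in all 3 pairs (Hspa5, Pdia4, P4hb, Dnajb11, Sdf2l1, Eif2ak3, Xbp1, Atf4, Syvn1 and Sar1b), against 16.4% of all genes. A further 5 were below WT in all 3 pairs (Canx, Ero1b, Creb3l2, Edem1 and Sec23a), against 14% of all genes. Some of these directions rest on a log2 difference near 0 in a pair. Examples are Sdf2l1 in the third pair (0.0045), Canx in the second (-0.014), and Creb3l2 (-0.012) and Ero1b (-0.019) in the first.

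**Figure D2:**
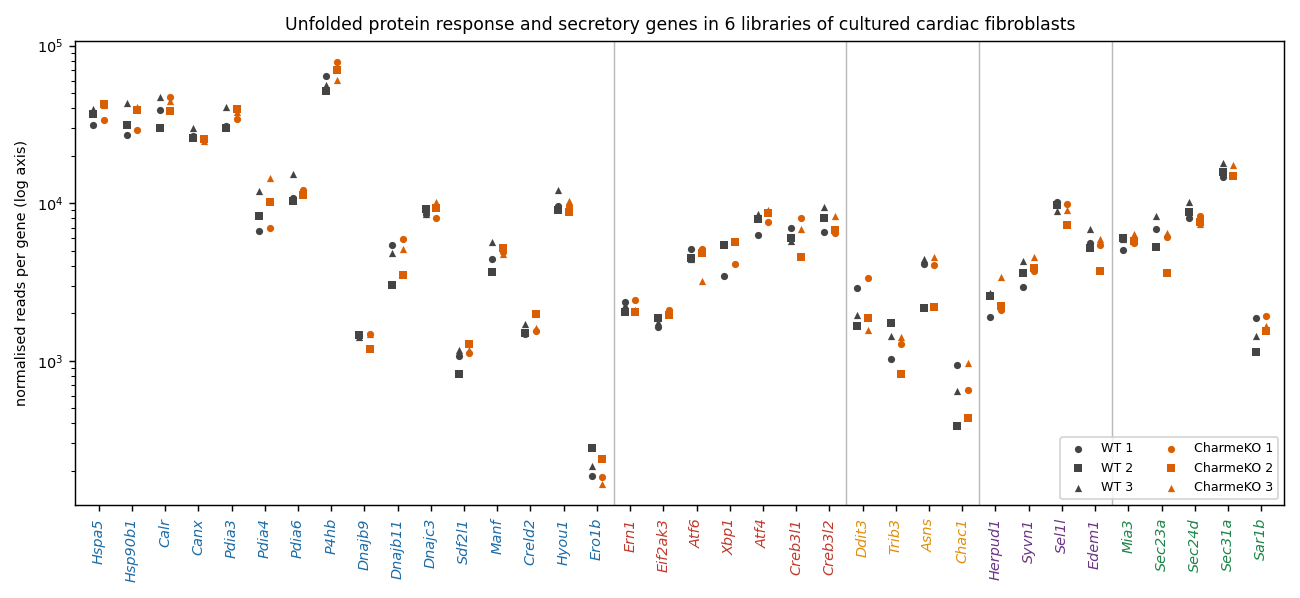
Normalised reads of the 36 genes in each of the 6 libraries, on a log axis, grouped by role between the vertical lines (chaperones and foldases, sensors and transcription factors, integrated stress response targets, ER-associated degradation, COPII export). WT and CharmeKO points overlap for all genes but Canx and Eif2ak3, and the levels run from 164 for the lowest Ero1b library to 78909 for the highest P4hb library.

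The genes differed far more from each other than between genotypes. Per kilobase of exon (the union of the annotated exons of the gene), P4hb led with 22243 normalised reads per kb averaged over the 6 libraries, followed by Calr with 14266, Pdia3 with 11346, Hspa5 with 8910.4 and Hsp90b1 with 8723. Of the 15908 tested genes with an exon length, P4hb stood at the 99.7th percentile and Hsp90b1 at the 99.1st. Canx reached 5618 reads per kb and Atf4, the highest transcription factor, 3401. The ER-bound factor Creb3l1 reached 2450.4, above the 490 of Atf6 and the 1043 of its relative Creb3l2. The sensors Eif2ak3 and Ern1 were low among the 36, with 313 and 270.4. Among the tested genes with an exon length they stood at the 66.5th and 63.0th percentile. Ero1b was the lowest of the 36 at 31.7, the 25.9th percentile. Neighbours in this order such as Hspa5 and Hsp90b1 lay closer together than the spread of either gene over the libraries.

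Levels of the 36 were steadier between libraries than those of most genes. The SD of the log2 level over the 6 libraries ran from 0.103 for Canx to 0.550 for Chac1, with a median of 0.220. The median was 0.417 over all genes and 0.304 over the 10484 genes expressed at least as highly as Ero1b. The median level was 5630 normalised reads for the 36 and 1478 for those 10484 genes, so this comparison was not matched for level. Of the 36, 28 were below 0.304. The highest library was less than 2-fold above the lowest for 30 of the 36, against 64.7% of those 10484 genes. The other 6 were Pdia4 (2.18-fold), Ddit3 (2.14-fold), Trib3 (2.13-fold), Asns (2.11-fold), Chac1 (2.51-fold) and Sec23a (2.32-fold), so all 4 integrated stress response targets were among them. No test was made of this difference in spread, which rests on the same 6 libraries for every gene.

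**Figure D3:**
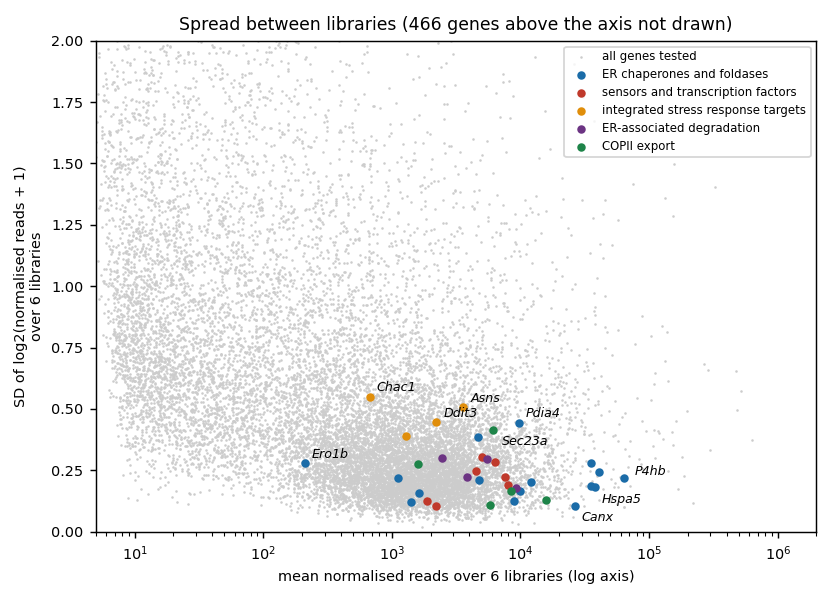
SD of log2(normalised reads + 1) over the 6 libraries against mean level (log axis) for the genes tested (grey) and the 36 genes by role. Chac1 (0.550) and Asns (0.506) are the highest coloured points and Canx (0.103) is the lowest; 466 genes with an SD over 2 are not drawn.

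For most of the 36 genes, more of the spread lay between library numbers than between genotypes. Over all genes, libraries of the same number deviated together from their group means in the first and second pairs (correlations of 0.762 and 0.514). For the third pair the correlation was 0.217, below the 0.222 between the second WT and the third CharmeKO library. The pairing was inferred from these same data, as the labels do not say what the numbers share. The library number has more levels than the genotype, so its share of variance tends to be larger even where neither has an effect. The share of variance in log2 between numbers exceeded the share between genotypes for 31 of the 36 genes. That count was not set against all genes, and it does not show that the number mattered more than the genotype. The median share between numbers was 69.8% for the 36 against 73.8% for all genes, and the median share between genotypes was 12.5% against 5.91%. The 5 exceptions, named after their values were seen, were Canx, P4hb, Sdf2l1, Eif2ak3 and Sec24d. Averaged over both genotypes, the third libraries were the highest for 24 of the 36 genes, the first for 9 and the second for 3.

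By their median, the integrated stress response targets stood low in the second libraries, although this did not hold for each gene. Averaged over both genotypes, Asns (-0.65) and Chac1 (-0.63) were low in the second libraries. Ddit3 was low in the second (-0.26) and in the third (-0.29). Trib3 had 14.9% of its variance between numbers, and its second libraries were the highest of WT and the lowest of CharmeKO. Relative to the mean of each gene, the median of the 4 integrated stress response targets was -0.51 and -0.58 on the log2 scale in the second WT and CharmeKO libraries, and between 0.11 and 0.36 in the other 4. For the chaperones the second libraries went opposite ways, with a median of -0.16 in WT and 0.12 in CharmeKO. The same was true of the sensors and transcription factors in the first libraries, at -0.19 in WT and 0.14 in CharmeKO. Marker levels also varied between libraries. The smooth muscle gene Acta2 was at 96903, 18192 and 155862 in WT and 90719, 5415 and 20212 in CharmeKO, so that the second libraries were low in both genotypes and the third libraries were far apart. The macrophage gene Lyz2 was at 4919, 3181 and 1012 in WT and 12791, 10470.3 and 278 in CharmeKO, lowest in the third library of each genotype. The mesothelial gene Upk3b was high in the first libraries, at 4455 in WT and 4537 in CharmeKO, against 296.6 to 656 in the other 4. Their part in the levels of the 36 genes was not tested.

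**Figure D4:**
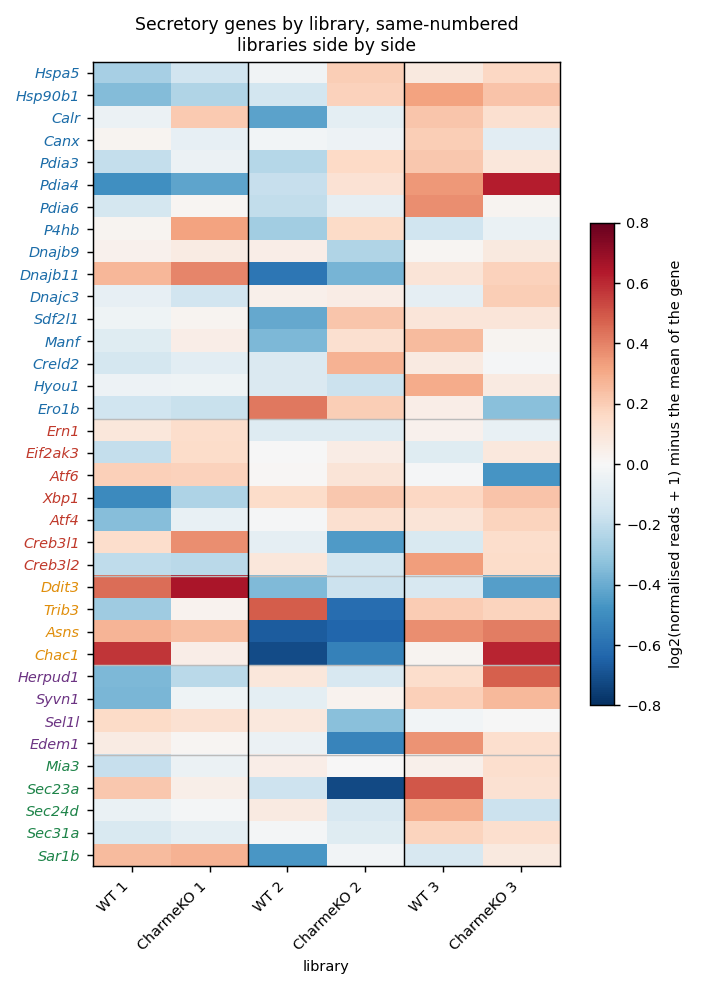
Log2 level of each of the 36 genes (rows, coloured by role) in each library minus the mean of that gene over the 6 libraries, with libraries of the same number side by side. Asns is low in both second libraries, and Pdia4 is lowest in both first libraries and highest in both last ones.

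Further genes of the pathway were counted in the same way. Of 174 further genes in 6 lists of ER folding, translocation and glycosylation, degradation, stress regulation, ATF4 and CHOP targets, and COPII export, 167 were tested and 0 were called by limma, edgeR or DESeq2. Of all genes, limma and edgeR called 0% and DESeq2 0.0502%. By limma 0 of the 167 had an unadjusted p under 0.05, against 0.897% of all genes. The log2 difference was above 0 for 107 and below 0 for 60, with a median of 0.050. With the block, 8 of the 167 had an unadjusted limma p under 0.05 (Fkbp7, Cnpy2, Selenok, Eif2ak1, Cebpb, Slc3a2, Slc7a1 and Psat1), against 5.37% of all genes.

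By list, 19 of 30 genes of ER folding and redox were above 0 (median 0.083). The lowest p in that list was that of Selenok, a selenoprotein of the ER membrane. Selenok had 2384, 2527 and 2431 normalised reads in WT and 2799, 3392 and 3079 in CharmeKO. The groups did not overlap, and the log2 difference was 0.33 ± 0.146 (SE). In the same list the oxidase Ero1a was at -0.46 ± 0.335. Of the translocation, signal peptidase and N-glycosylation genes, 23 of 30 were above 0 (median 0.084), with the signal peptidase subunits Spcs1 at 0.28 ± 0.151 and Spcs2 at 0.25 ± 0.157.

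Among other genes of degradation 12 of 21 were above 0 (median 0.018), with Selenos at 0.25 ± 0.188 and the lectin Os9 at 0.31 ± 0.242. Of the other stress regulators 12 of 20 were above 0 (median 0.0060). Eif2ak1, the haem-regulated kinase that shares its substrate with PERK, had 2252, 2209 and 2135 in WT and 2573, 2689 and 2897 in CharmeKO. These groups did not overlap either, and the log2 difference was 0.31 ± 0.138 (SE). Of the 167 further genes tested, 7 had groups without overlap, against 4.11% of all genes. They include Spcs1 and Spcs2, with CharmeKO above WT, and Sec24a, with CharmeKO below WT. Atf6b, the close relative of Atf6, was at 0.21 ± 0.146. Of the ATF4 and CHOP targets 20 of 37 were above 0 (median 0.0024), with the cell death gene Bbc3 at 0.40 ± 0.216 and the amino acid transporter subunit Slc3a2 at 0.30 ± 0.190. Of the COPII and ER exit genes 21 of 29 were above 0 (median 0.033), while the most extreme by p, Sec24a and Ergic1, were at -0.17 ± 0.136 and -0.33 ± 0.313. In these lists as in the 36, the values named did not pass the adjusted threshold.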

How the data were processed

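RNA was prepared with a directional poly(A) kit. The authors aligned reads with STAR, counted them per gene on the reverse strand with an Ensembl annotation to which Charme was added, removed low-count genes and normalised with DESeq2. Their sources name different genome builds, and the table has no coordinates; those printed are from GENCODE (GRCm38) and RefSeq. The deposited table holds a normalised signal, counts divided by a size factor. Dividing by the smallest step in each library returned whole reads for 100% of 116676 values (tolerance 0.01). The main test was limma 3.58.1 (trend on, genotype as the only term, two-sided), run on log2(value + 1) for genes with 10 reads in 2 libraries. Alternatives were a pseudocount of 8, no filter, edgeR 4.0.16 with TMM (0 genes called of 15948) and DESeq2 1.42.0 (8 called) on the recovered reads, a block for the library number, and leaving out each library. Fits were tested on simulated data.

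Library numbers came from the sample titles. Deviations of same-numbered libraries from their group means correlated at 0.762, 0.514 and 0.217 over all genes (minimum set at 0.1), so the numbers were taken to pair the libraries; differently numbered libraries correlated at -0.643 to 0.222, the highest between the second WT and the third CharmeKO library, so the third pair is the weakest. Genes were described in full if among the 3 lowest limma p of a role, or as usual readouts (Hspa5, Atf4, Xbp1, Ddit3), and, in the other lists, if among the 2 lowest p. The 36 genes and all lists were chosen with earlier results of these data known, so no p was adjusted over a list alone. Positions of promoter elements refer to RefSeq gene starts.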

Additional observations from a re-analysis of the deposited data

How the results depend on the processing

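Over 15948 genes, 0 were called by limma and 0 by edgeR, while DESeq2 called 8 and DESeq2 with the replicate block called 64; none of these was among the 36. With the block, which uses the pairing of library numbers, limma called 0 genes (857 at an unadjusted p under 0.05, against 143 without it) and edgeR 0. The block thus changed the number of genes called by DESeq2 only. Leaving out each library called 0 genes in all 6 fits.

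None of the 36 changed direction under the 7 other alternatives. In all 6 fits without a library, 18 of the 36 kept their direction, against 36.7% of all genes. The other 18 changed direction in at least 1 of these fits. Their log2 differences ran from -0.030 to 0.30 (Hsp90b1), -0.044 to 0.48 (Pdia4), -0.13 to 0.16 (Pdia6), -0.12 to 0.038 (Dnajb9), -0.12 to 0.36 (Dnajb11), -0.012 to 0.16 (Dnajc3), -0.011 to 0.30 (Manf), -0.17 to 0.033 (Hyou1), -0.091 to 0.029 (Ern1), -0.25 to 0.079 (Atf6), -0.092 to 0.29 (Xbp1), -0.14 to 0.27 (Creb3l1), -0.30 to 0.25 (Ddit3), -0.32 to 0.33 (Asns), -0.26 to 0.39 (Chac1), -0.13 to 0.22 (Herpud1), -0.017 to 0.10 (Mia3) and -0.10 to 0.05 (Sec31a). The median of sensors and transcription factors ran from -0.074, without the first CharmeKO library, to 0.055. The medians of the other roles ran from 0.028 to 0.22 (chaperones), -0.20 to 0.22 (integrated stress response), -0.15 to 0.080 (degradation) and -0.10 to 0.054 (COPII); the cause was not tested. With 3 libraries against 3, an exact permutation test of 1 gene cannot go below p = 0.1. Depth did not limit the counts of the 36, of which the lowest, Ero1b, had at least 164 normalised reads in each library.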
